A study of Astatotilapia calliptera and Pundamilia nyererei and Oreochromis niloticus with 31 samples.

Results

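Retroelements other than Gypsy and Pao were followed through the small RNA (sRNA) libraries of 3 Lake Malawi cichlids, Tropheops sp. 'mauve' (TM), Astatotilapia calliptera (AC) and Maylandia zebra (MZ). They were picked by name from the curated transposable element (TE) annotation: every internal (INT) or long terminal repeat (LTR) entry whose name does not start with Gypsy or Pao, plus the DIRS and Ngaro entries, without the entries of ERV1-3, ERV1-4, ERV1-7 and ERV1-10. This gave 29 of 557 entries, which belong to 16 elements. ERV1 contributed 12 entries (ERV1-1, ERV1-2, ERV1-5, ERV1-6, ERV1-8 and ERV1-9, each with an INT and an LTR entry), and Copia 11 (INT and LTR of Copia-2, Copia-3, Copia-6, Copia-9 and Copia-10, and INT of Copia-5). ERV-2 and LTR-28 contributed an INT and an LTR entry each, DIRS-1 and DIRS-2 are single entries, and the table has 0 Ngaro entries. A further 23 entries named LTR with no INT or LTR suffix fall outside the rule.

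The libraries came from wild-type fish: 3 from ovaries, 4 from testes and 1 from muscle of AC, 4 from testes of TM and 2 from testes of MZ. AC and TM were grown in the authors' aquaria and the MZ were dominant adult males bred in captivity by a supplier, so origin of the fish and species cannot be told apart for MZ. Replicates were pieces of the organ from size-matched individuals. Reads of all 3 species were mapped to the AC genome, so a lower level in TM or MZ and poorer mapping of their reads cannot be told apart. The tables hold TE families and no genes, so the labelled organ could not be checked against marker genes, and in such bulk samples fewer cells of a type and fewer sRNAs per cell cannot be told apart.

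LTR retrotransposons copy themselves through an RNA intermediate. Their internal region codes for the capsid protein (gag) and the polymerase polyprotein (pol), and it lies between LTRs, direct repeats that hold the promoter and the end of the transcript. Endogenous retroviruses (ERVs) descend from retroviruses that entered the germline, and ERV1 is the class related to gammaretroviruses. Copia elements are LTR retrotransposons in which the integrase precedes the reverse transcriptase in pol, the reverse of the order in Gypsy elements. DIRS elements insert with a tyrosine recombinase in place of the integrase and do not end in ordinary LTRs. In animal gonads, Piwi proteins loaded with piRNAs, sRNAs of about the length selected here, find and silence the transcripts of such elements. Reads were counted without regard to strand, so a value can hold both antisense sRNAs, which can pair with the element's transcript, and sense sRNAs, which can be cut from it.

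Each entry has 1 value per library, a log2 number from DESeq2's regularised log transformation (rlog) that the authors applied to counts of reads of 24 to 35 nucleotides. They are read totals per family, not per length or per copy, so levels are compared below between libraries, and a difference in level between entries also holds their lengths and copy numbers. The scaling sets the middle of the 557 families level between libraries, so each difference is relative to that middle. Libraries of TM testes replicates 1 and 3 stood apart from all others in their likeness: their log2 values differed with an SD of 0.0487 over 532 families, against 0.12 to 0.348 in the other pairs of libraries within a group. By counts approximated from the rlog values and the TE read totals, 83.3% of families were within the 95% interval that counting alone gives. Since rlog values do not give back counts, a difference beyond counting noise is not certain. They were kept as 2 libraries, and the limma calls on TM were also computed on their average. Shares, gaps and counts of libraries that do not overlap used every TM library. Ovaries had fewer TE-mapping reads than testes and muscle by far the fewest, so rare entries are least certain there. The authors left out ovary samples of the study that failed quality control, and name yolk in the RNA purification as the most likely reason. Organ and RNA quality cannot be told apart here. NA-DNA-22 was the most abundant family and is a DNA transposon by its name. It took 9.89% to 24.4% of the summed linear value in AC ovaries, 37.6% in muscle and 1.45% to 1.85% in AC testes. In MZ testes it took 8.93% in replicate 1 and 2.37% in replicate 2, and in TM testes 2.21% to 4.7%. Shares of the TE total move with it.

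Together the 29 entries held 4.86% to 5.11% of the summed linear value in AC testes, 4.69% to 4.99% in TM testes, 4.47% to 4.87% in MZ testes, 4.1% to 4.84% in AC ovaries and 2.48% in muscle. Leaving NA-DNA-22 out of the total turned the order of the AC organs by mean, to 5.34% in ovaries and 5.08% in testes. The AC libraries were then at 5.19% to 5.45% in ovaries, 4.93% to 5.19% in testes and 3.97% in muscle. Testes of TM were then at 4.92% to 5.1% and those of MZ at 4.91% to 4.99%, so the 3 species overlapped. ERV1 made up the largest portion in every gonad library, at 2.37% to 2.78% in ovaries and 2.41% to 2.55% in AC testes. Copia held 0.573% to 0.821% in ovaries and 0.911% to 1.11% in AC testes, and the pair of DIRS entries 0.61% to 0.807% and 1.03% to 1.08%. With NA-DNA-22 left out of the total, the ERV1 share was 2.99% to 3.35% in ovaries and 2.44% to 2.6% in AC testes, and the DIRS share 0.806% to 0.895% and 1.05% to 1.1%. On that total the ovary libraries were above all AC testis libraries for ERV1 and below them for DIRS. The Copia share without NA-DNA-22 was 0.757% to 0.911% in ovaries and 0.926% to 1.12% in AC testes, again with no overlap.

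Single entries ranged widely in read totals. ERV1-1 INT was the highest member in every gonad library except MZ testes replicate 1, where it was at 12.86 and ERV1-6 INT at 12.90, and it ranked 12 to 20 of the 557 entries in the gonads. ERV1-6 INT ranked 16 to 36 and ERV1-9 INT 15 to 92, and the order of the members after the first changed between libraries. DIRS-2 ranked 20 to 52, DIRS-1 21 to 63 and ERV-2 INT 35 to 61, and the values of the DIRS entries overlapped in AC testes (12.59 to 12.81 and 12.59 to 12.80), those of ERV-2 INT lying below both (12.29 to 12.49). The highest Copia entry was Copia-5 INT, at 11.55 to 12.02 in AC testes, and the highest entry of LTR-28 was its LTR, at 9.19 to 9.43. ERV-2 LTR lay at the other end, at 2.44 to 2.69 in the 14 libraries, the last rank in each of them, while the internal part of the same element ranked 61 or better in every gonad library. ERV-2 LTR was the 1 member under the minimum value for testing, so 28 of 29 entries were tested. The dot plot of all entries shows how little most of them moved between gonads compared with the distance between entries.

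**Figure D1:**
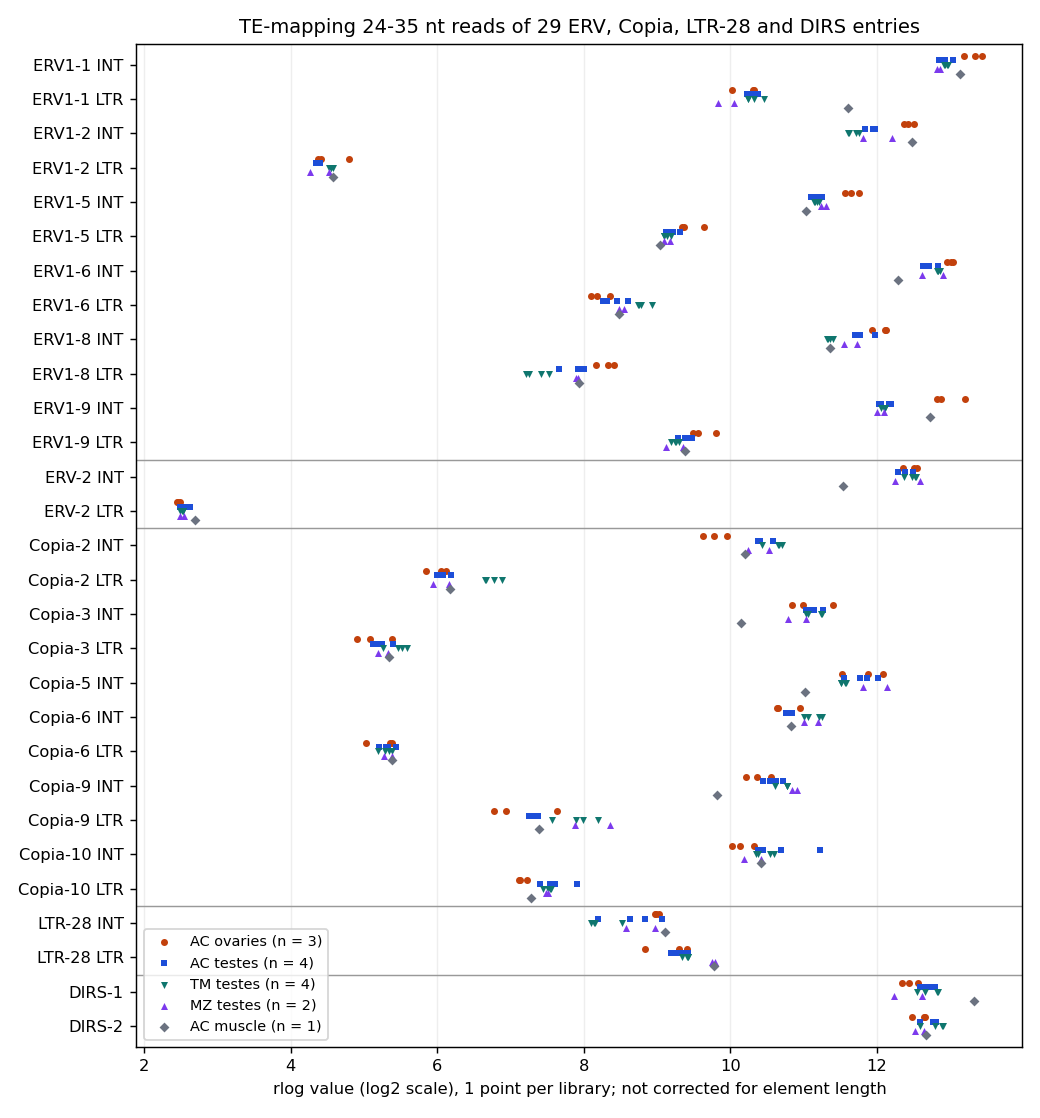
Each row is 1 of the 29 entries and each point 1 library; the x axis is the rlog value on the log2 scale, coloured by group, with horizontal lines between ERV1, ERV-2, Copia, LTR-28 and DIRS. INT entries lie to the right of the LTR entries of the same element except for LTR-28, and ERV-2 LTR is at 2.44 to 2.69 in all 14 libraries.

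Which of these elements draw more piRNA-sized reads in the male or the female gonad was asked by comparing AC testes with AC ovaries. Relative to the middle of all families, internal regions of 5 ERV1 elements and the LTR of ERV1-8 were lower in testes, and Copia-2 INT, both entries of Copia-10 and DIRS-1 were higher. Over all 554 families tested, limma called 42.1% at an adjusted p under 0.05, 20.8% higher and 21.3% lower in testes. Of the 28 members, 10 were called, 4 higher and 6 lower, a share of 35.7% that is below that of all families. The median difference (testes minus ovaries) was 0.057 over the members and −0.0079 over all families. All testis libraries lay on 1 side of all ovary libraries for 12 of the 28 members, against 48.2% of all families. The direction rests on the scaling, since each of the 3 other scalings shifted all entries upwards in testes by the same amount. When libraries were scaled to all of their 24 to 35 nucleotide reads, the median difference of all families moved to 1.35 and that of the members to 1.42, 16 members were called, all higher in testes, as were 304 of the 305 families called. Scaled to the TE total, these medians were 0.37 and 0.43, and 16 members were called, 15 of them higher, beside 267 of 295 families. With 1 library left out, the members called fell to 6 without AC ovaries replicate 1 or AC testes replicate 1 and to 5 without AC testes replicate 3. Calls over all 554 families were then 230, 180 and 191, beside 233 with every library kept. Without NA-DNA-22 in the TE total, 153 of 240 families called were higher in testes.

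All 6 ERV1 internal entries had negative differences relative to the middle family, and 5 were called lower in testes. Beside them, 283 of the 554 families tested had negative differences and 21.3% were called lower. ERV1-9 INT had the largest difference of any member. Its values were 13.21, 12.88 and 12.82 in the ovary libraries and 12.04, 12.20, 12.06 and 12.17 in the testis libraries, a difference of −0.85 ± 0.11 SE with a limma adjusted p of 0.000497. Every ovary library was above every testis library, and the linear level in testes was 0.554 times that in ovaries. ERV1-2 INT had values of 12.42, 12.37 and 12.51 in ovaries and 11.95, 11.97, 11.84 and 11.97 in testes (difference −0.50 ± 0.08 SE, limma adjusted p = 0.00127). ERV1-5 INT had 11.76, 11.57 and 11.65 in ovaries and 11.21, 11.26, 11.13 and 11.10 in testes (−0.49 ± 0.09 SE, limma adjusted p = 0.002). Neither entry overlapped between the organs, and in ERV1-2 INT the testis library furthest from ovaries was replicate 3. ERV1-1 INT, the member with the highest mean over the gonads, was at 13.35, 13.20 and 13.44 in ovaries and 12.85, 12.94, 13.04 and 12.86 in testes (−0.41 ± 0.09 SE, limma adjusted p = 0.0058). ERV1-6 INT was at 13.02, 12.96 and 13.04 in ovaries and 12.69, 12.72, 12.63 and 12.83 in testes (−0.29 ± 0.08 SE, limma adjusted p = 0.0169). ERV1-6 INT missed the threshold without AC testes replicate 1 (−0.28) or replicate 3 (−0.26). ERV1-8 INT did not pass, with a difference of −0.20 and a 95% interval of −0.42 to 0.032 (intervals here and below are not adjusted for the number of families). Scaled to all reads, all 6 ERV1 internal entries had positive differences, 0.51 for ERV1-9 INT to 1.16, 0 of them past the limma threshold (adjusted) and 1 at an unadjusted p under 0.05, but their median of 0.91 was still below the 1.35 of all families. Scaled to the TE total, 2 of the 6 had positive and 4 negative differences, and only 1 was called lower. Their median was then −0.072, beside 0.37 over all families. Without NA-DNA-22 in that total, all 6 were negative and 4 were called lower.

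The LTRs of the same elements, which carry the promoter, gave 1 call. Of 6 ERV1 LTR entries, 2 had positive and 4 negative differences, and ERV1-8 LTR was the only one called. It had values of 8.41, 8.34 and 8.17 in ovaries and 7.94, 7.92, 7.66 and 8.01 in testes, a difference of −0.43 ± 0.13 SE with a limma adjusted p of 0.0246. Testis libraries were all below ovary libraries, but the call was lost without AC ovaries replicate 1 (−0.37) or 2 (−0.41) and without AC testes replicate 1 (−0.44) or 3 (−0.35), and scaled to all reads the difference was 0.93. The LTR of ERV1-9 differed by −0.23 (95% interval −0.49 to 0.025), that of ERV1-5 by −0.23 (−0.49 to 0.028) and that of ERV1-1 by 0.10 (−0.14 to 0.34), none past the threshold. For the LTRs of ERV1-9 and ERV1-5 all testis libraries were also below all ovary libraries. With ERV1-8 LTR, 3 of the 6 ERV1 LTR entries did not overlap, against 48.2% of all families.

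The 3 Copia entries called were higher in testes. Of 11 Copia entries, 10 had positive differences, beside 271 of the 554 families tested, and the 3 calls compare with the 20.8% of all families called higher. Copia-2 INT had values of 9.63, 9.95 and 9.78 in ovaries and 10.40, 10.40, 10.58 and 10.38 in testes, a difference of 0.66 ± 0.11 SE (limma adjusted p = 0.00159). No ovary library reached the testis libraries, and the level in testes was 1.58 times that in ovaries. Its LTR did not pass, at 6.05, 6.13 and 5.84 in ovaries and 6.07, 5.997, 6.03 and 6.19 in testes (difference 0.069, 95% interval −0.21 to 0.35). Both entries of Copia-10 were called. Copia-10 INT was at 10.32, 10.13 and 10.03 in ovaries and 10.44, 10.70, 11.23 and 10.38 in testes (0.53 ± 0.19 SE, limma adjusted p = 0.0498). Copia-10 LTR was at 7.14, 7.23 and 7.11 and 7.54, 7.60, 7.91 and 7.41 (0.46 ± 0.14 SE, limma adjusted p = 0.0268). AC testes replicate 3 was the highest library for both, and without it the differences were 0.35 and 0.36 and missed the threshold. Copia-10 INT passed only without AC testes replicate 1 (0.61) or 4 (0.63), and Copia-10 LTR only without AC ovaries replicate 2 (0.49) or AC testes replicate 4 (0.52). Copia-5 INT, the most abundant Copia entry, was at 11.52, 11.88 and 12.09 in ovaries and 11.78, 11.55, 12.02 and 11.88 in testes and overlapped throughout (−0.029, 95% interval −0.36 to 0.31). Under each of the other scalings all 11 Copia entries had positive differences. Scaled to all reads, 11 were called higher (1.33 to 2.02, median 1.47), beside a median of 1.35 over all families. Scaled to the TE total 9 were called higher, and 3 without NA-DNA-22 in that total.

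With the values as deposited, DIRS-1 was called higher in testes and DIRS-2 was not, a split that the other scalings did not keep. DIRS-1 had values of 12.34, 12.45 and 12.56 in ovaries and 12.68, 12.80, 12.75 and 12.59 in testes, a difference of 0.26 ± 0.09 SE (limma adjusted p = 0.0436). The groups did not overlap, with 12.56 the highest ovary and 12.59 the lowest testis value, and the call held only without AC ovaries replicate 3 (0.31) or AC testes replicate 4 (0.29). The lowest value with 1 library left out was 0.20, without AC ovaries replicate 1. DIRS-2 had 12.48, 12.66 and 12.65 in ovaries and 12.77, 12.59, 12.81 and 12.79 in testes (difference 0.14, 95% interval −0.062 to 0.34, limma adjusted p = 0.232). With AC testes replicate 2 at 12.59, its groups overlapped. Both DIRS entries were called higher in testes under each of the other scalings. Their differences were 1.50 to 1.62 scaled to all reads, 0.52 to 0.63 scaled to the TE total and 0.24 to 0.36 without NA-DNA-22. Over all 554 families, 304, 267 and 153 were then called higher. ERV-2 INT, at 12.56, 12.36 and 12.51 in ovaries and 12.29, 12.38, 12.49 and 12.30 in testes, did not pass (difference −0.11, 95% interval −0.31 to 0.092). Neither did the INT (−0.32, −0.73 to 0.10) and LTR (0.13, −0.20 to 0.46) of LTR-28. Scaled to the TE total, ERV-2 INT (0.27) and LTR-28 LTR (0.51) were called higher in testes, and LTR-28 INT (0.061) was not.

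**Figure D2:**
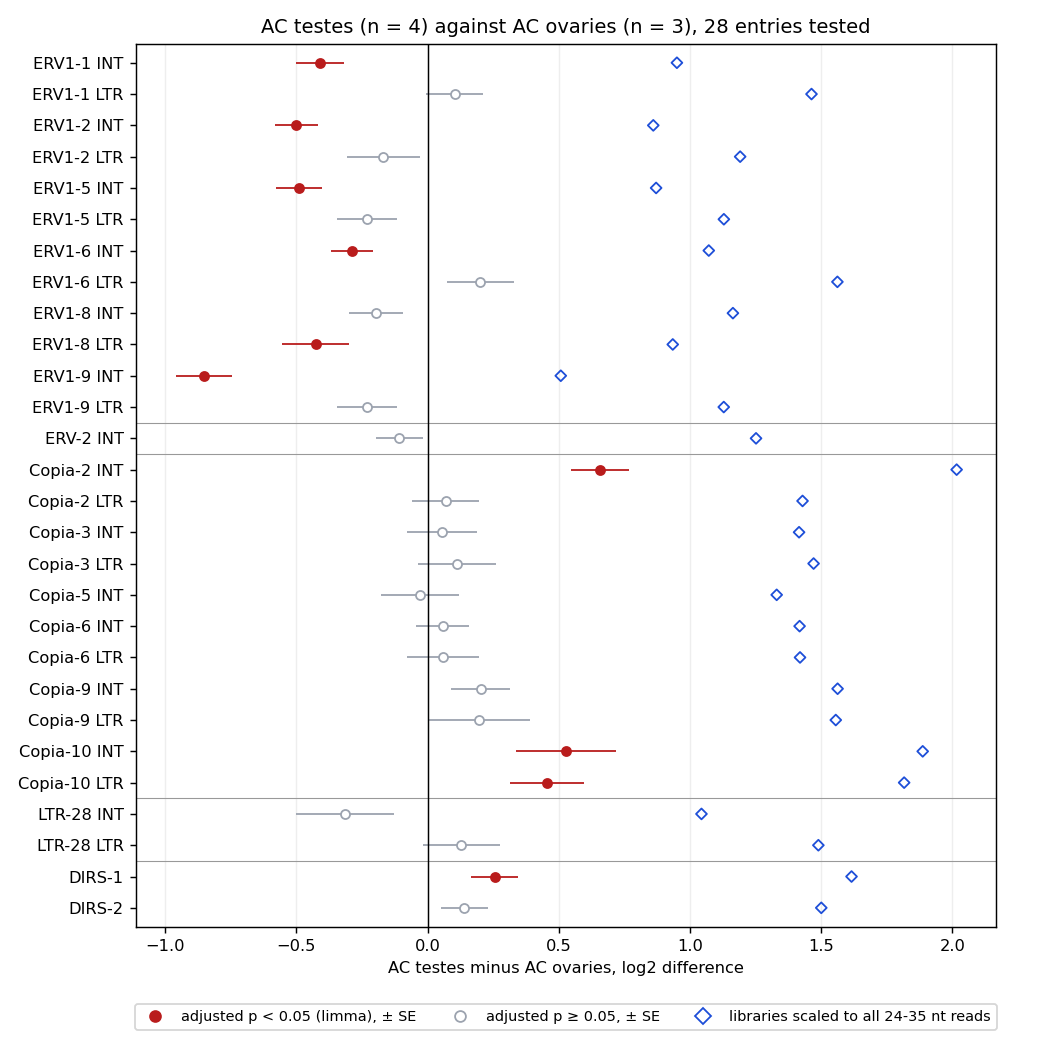
Log2 difference of AC testes minus AC ovaries for the 28 entries tested, with standard errors as bars; filled red points passed a limma adjusted p of 0.05, open grey points did not, and blue diamonds give the difference when libraries were scaled to all 24 to 35 nucleotide reads. The 5 ERV1 internal entries called lie left of 0, from −0.85 to −0.29, and Copia-2 INT at 0.66 to the right, while every diamond is right of 0, the one for ERV1-9 INT lowest at 0.51.

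Other retroelements moved in the same comparison as follows, given as a description. In the Gypsy internal entries, 51 of 103 were called lower and 9 higher in testes with a median of −0.34, beside −0.45 over the 6 ERV1 internal members. In Pao, 9 of 41 internal entries were called lower and 4 higher. Of the 4 ERV1 internal entries left out by the rule, 1 was called lower and 0 higher, with a median of −0.18.

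Internal region and LTR of 1 element are read from the same libraries, so the gap between them (INT minus LTR, log2) does not depend on how libraries are scaled, though it keeps the shrinkage that rlog applies to entries with few reads. Between organs of AC, gap values did not overlap for 6 of 12 elements with both entries tested, 5 with a smaller and 1 with a larger gap in testes. Over all 154 elements of the table with both entries tested, Gypsy and Pao included, gaps did not overlap in 33.8%, 28.6% with a smaller and 5.19% with a larger gap in testes. The median change in gap was −0.16 over the 12 members and −0.17 over all pairs. The 5 with smaller gaps were all ERV1. In ERV1-9 the gap was 3.40, 3.31 and 3.33 in ovaries and 2.61, 2.82, 2.78 and 2.70 in testes. Means were 3.35 ± 0.05 (SD, n = 3) and 2.73 ± 0.09 (SD, n = 4). The gap of ERV1-1 was 3.11 ± 0.07 (SD, n = 3) in ovaries and 2.60 ± 0.08 (SD, n = 4) in testes, that of ERV1-6 4.80 ± 0.11 (SD, n = 3) and 4.31 ± 0.09 (SD, n = 4). ERV1-2 and ERV1-5 changed by less, from 7.91 ± 0.25 (SD, n = 3) to 7.58 ± 0.06 (SD, n = 4) and from 2.21 ± 0.09 (SD, n = 3) to 1.96 ± 0.11 (SD, n = 4), and in ERV1-8 the testis and ovary values overlapped. Copia-2 was the element with the larger gap in testes, 3.58, 3.83 and 3.94 in ovaries against 4.33, 4.41, 4.55 and 4.19 in testes. Within the same libraries the internal part of 5 ERV1 elements was thus closer to its own LTR in testes than in ovaries, and that of Copia-2 further above it. LTR-28 differed from the other elements in that its LTR had more reads than its internal region in all groups by mean, with a gap of −0.18 ± 0.28 (SD, n = 3) in ovaries and −1.17 ± 0.20 (SD, n = 4) in TM testes.

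**Figure D3:**
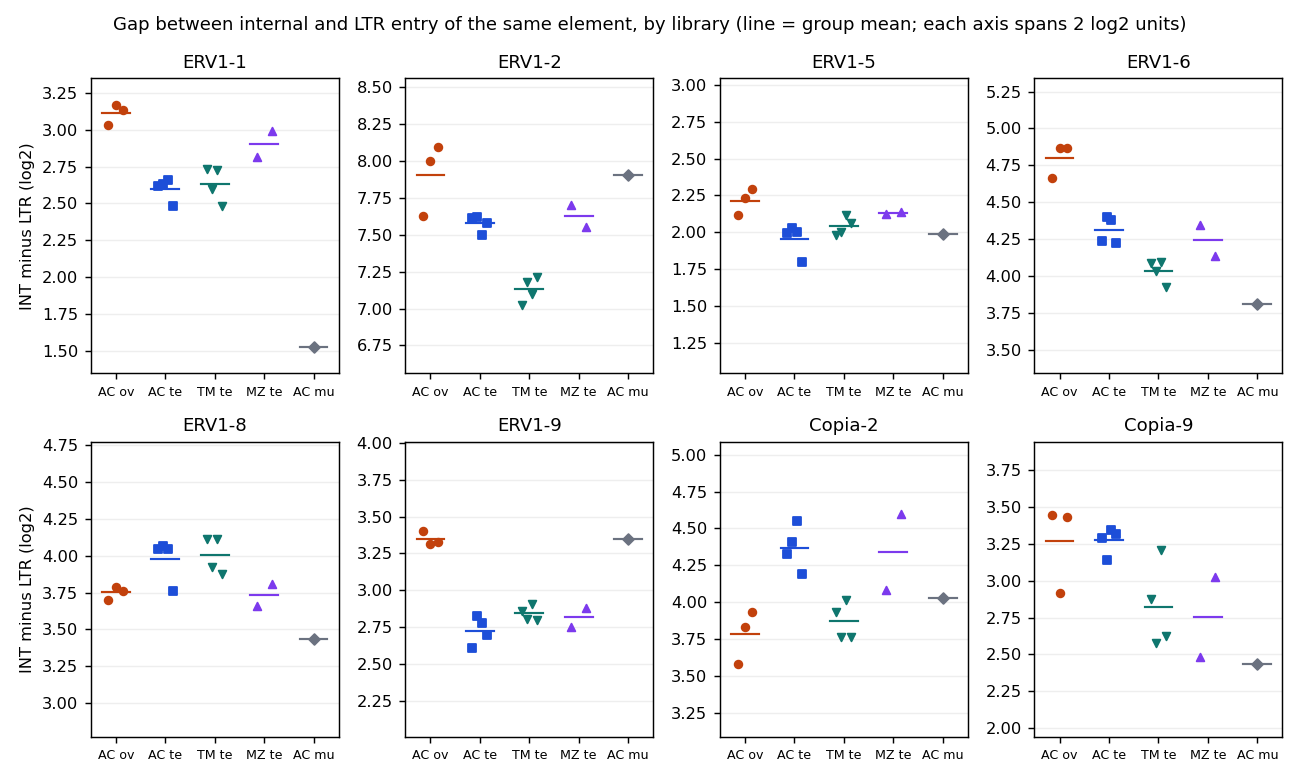
Gap between the INT and the LTR entry of the same element (log2, y axis, each panel spanning 2 units) for 6 ERV1 and 2 Copia elements; each point is a library of AC ovaries (ov), AC, TM or MZ testes (te) or AC muscle (mu), and lines are group means. In ERV1-1, ERV1-2, ERV1-5, ERV1-6 and ERV1-9 the ovary points lie above all AC testis points, and in Copia-2 below them.

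The same gap was also compared between species. It did not overlap for 5 of 12 elements between AC and TM testes (beside 35.1% of all pairs), for 5 between AC and MZ (33.1%) and for 6 between TM and MZ (46.8%). Copia-2 had a gap of 3.93, 3.77, 4.01 and 3.77 in TM, below all AC testis libraries, and of 4.08 and 4.59 in MZ. Copia-6 went the other way, with 5.48, 5.33, 5.63 and 5.52 in AC, 5.83, 5.86, 5.90 and 5.72 in TM and 5.73 and 5.82 in MZ. Relative to the middle family, the low Copia-2 gap of TM thus went with more LTR reads, and the high Copia-6 gap of TM with more internal reads. In MZ, Copia-6 INT was also higher than in AC but was not called (AC minus MZ −0.30, limma adjusted p = 0.055). Scaled to all 24 to 35 nucleotide reads, that difference turned to 0.092.

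How far the same elements differ between species was asked by comparing testes. In the comparison of AC with TM, both entries of ERV1-8 and ERV1-2 INT were higher in AC, and the LTRs of Copia-2, Copia-9 and ERV1-6 higher in TM. Over all 554 families 42.4% were called, 20.9% higher and 21.5% lower in AC. Of the members 9 of 28 were called, 4 higher and 5 lower in AC, or 32.1%, again below the share of all families. The median difference was −0.011 over members and −0.016 over all families, and under the other scalings the members' median was −0.0051 to 0.027. Libraries of the species did not overlap in 8 members, against 42.6% of all families. With TM replicates 1 and 3 averaged, 8 members and 178 families were called.

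ERV1-8 was lower in TM in both of its entries. ERV1-8 INT had values of 11.98, 11.98, 11.71 and 11.77 in AC testes and 11.37, 11.33, 11.32 and 11.40 in TM testes, a difference of 0.51 ± 0.07 SE (limma adjusted p = 0.000596). ERV1-8 LTR had 7.94, 7.92, 7.66 and 8.01 and 7.26, 7.41, 7.21 and 7.52, a difference of 0.53 ± 0.10 SE (limma adjusted p = 0.00297). All TM libraries were below all AC libraries for both, AC having 1.42 and 1.44 times the TM level. The entries of ERV1-2 were called in opposite directions, the LTR not under every scaling. ERV1-2 INT was at 11.95, 11.97, 11.84 and 11.97 in AC and 11.61, 11.72, 11.62 and 11.76 in TM (0.26 ± 0.05 SE, limma adjusted p = 0.00541), and ERV1-2 LTR, an entry with few reads, at 4.34, 4.35, 4.34 and 4.39 and 4.58, 4.54, 4.52 and 4.55 (−0.19 ± 0.05 SE, limma adjusted p = 0.0131). Scaled to all 24 to 35 nucleotide reads, ERV1-2 LTR was at −0.15 and not called (limma adjusted p = 0.138). The INT minus LTR gap of ERV1-2 was 7.58 ± 0.06 (SD, n = 4) in AC and 7.13 ± 0.09 (SD, n = 4) in TM, with no overlap. ERV1-6 LTR was higher in TM, at 8.46, 8.32, 8.26 and 8.61 in AC and 8.75, 8.79, 8.74 and 8.93 in TM (−0.39 ± 0.09 SE, limma adjusted p = 0.0073), with ERV1-6 INT at −0.12 (95% interval −0.22 to −0.014, limma adjusted p = 0.0648). ERV1-9 INT, the entry that differed most between organs, was at 12.11, 12.11, 12.10 and 12.06 in TM and differed from AC testes by 0.023 (95% interval −0.086 to 0.13).

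Copia-2 LTR had the largest difference from AC among members in TM. Its values were 6.07, 5.997, 6.03 and 6.19 in AC and 6.78, 6.67, 6.66 and 6.89 in TM, −0.67 ± 0.08 SE (limma adjusted p = 0.000186), while Copia-2 INT differed by −0.17 (95% interval −0.35 to −0.0040, limma adjusted p = 0.0909). Copia-9 LTR was at 7.25, 7.31, 7.37 and 7.31 in AC and 7.90, 8.20, 7.57 and 7.99 in TM (−0.60 ± 0.12 SE, limma adjusted p = 0.00396), and Copia-9 INT, with the same sign, did not pass (−0.15, −0.31 to 0.0044). In both elements the TM libraries lay above all AC libraries for the LTR. Copia-6 was called for its internal region, at 10.81, 10.76, 10.84 and 10.81 in AC and 11.21, 11.06, 11.25 and 11.01 in TM (−0.33 ± 0.06 SE, limma adjusted p = 0.00352), and not for its LTR (0.013, −0.15 to 0.17). Copia-5 INT was higher in AC, at 11.78, 11.55, 12.02 and 11.88 against 11.51, 11.57, 11.51 and 11.58 (0.26 ± 0.09 SE, limma adjusted p = 0.0374), but its libraries overlapped, its call held only without AC testes replicate 2 (0.35), was 0.19 without AC testes replicate 3, and it was lost with TM replicates 1 and 3 averaged (0.25, limma adjusted p = 0.0869). The other 8 members called kept their calls with 1 library left out in turn and with TM replicates 1 and 3 averaged. The DIRS entries did not pass, DIRS-1 differing by −0.016 (95% interval −0.18 to 0.15) and DIRS-2 by −0.057 (−0.23 to 0.12).

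**Figure D4:**
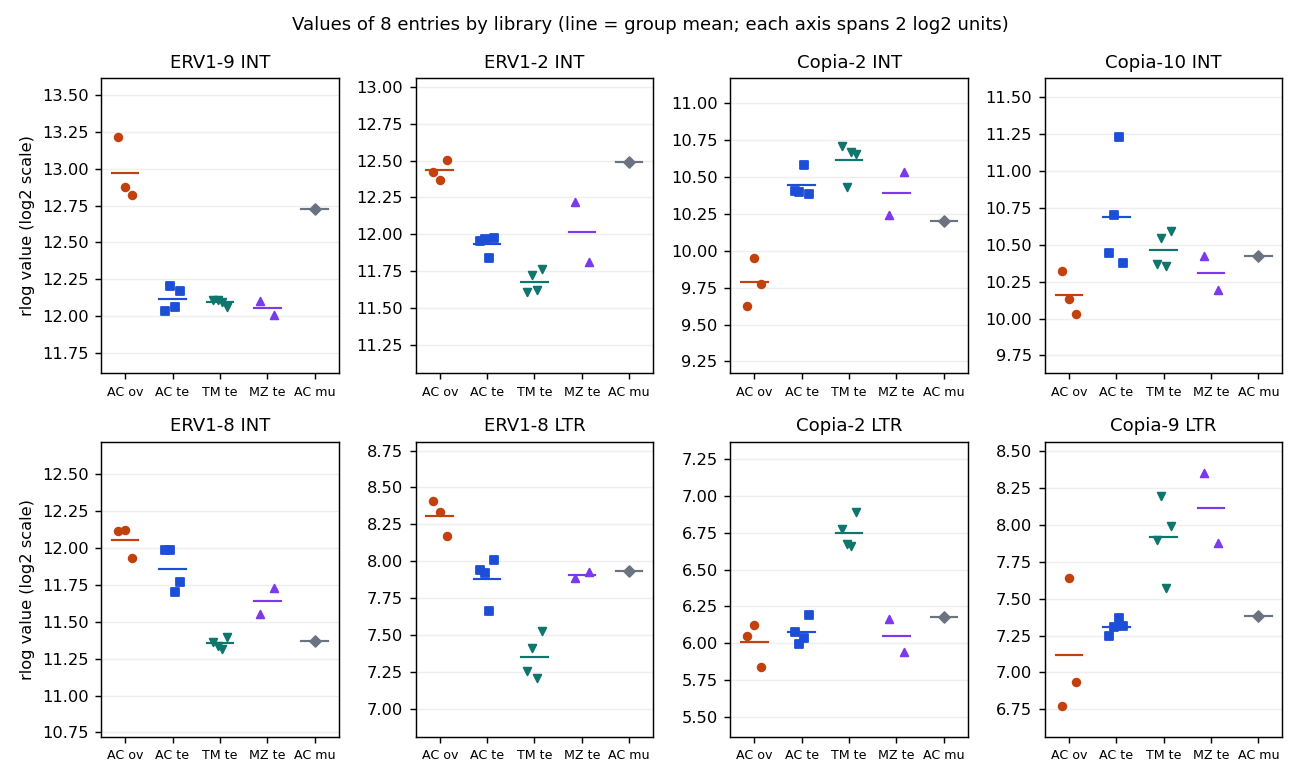
Rlog value (log2 scale, y axis, each panel spanning 2 units) of 8 entries by library, with ov for ovaries, te for testes and mu for muscle; points are libraries and lines group means. Relative to the middle family, ERV1-9 INT and ERV1-2 INT are higher in AC ovaries than in AC testes. That order turns when libraries are scaled to all reads. Among gonad groups on the plotted scale, TM testes are lowest for both ERV1-8 entries and highest for Copia-2 LTR, at 6.66 to 6.89. Muscle lies within the range of TM testes for ERV1-8 INT.

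MZ testes were represented by 2 libraries. Against AC testes, 16.2% of all families were called, 7.22% higher and 9.03% lower in AC, and 3 of 28 members (10.7%), all of them LTR entries. Libraries did not overlap in 5 members, against 41.9% of all families. Copia-9 LTR was at 8.36 and 7.88 in MZ, above all AC libraries (7.25, 7.31, 7.37 and 7.31), with a difference of −0.81 ± 0.15 SE (limma adjusted p = 0.0207). Its call was lost without MZ testes replicate 1 (−0.57) or AC testes replicate 1 (−0.79). LTR-28 LTR was at 9.75 and 9.79 in MZ and 9.19, 9.27, 9.43 and 9.34 in AC (−0.46 ± 0.11 SE, limma adjusted p = 0.0316), and passed with 1 library left out only without AC testes replicate 3 (−0.50). ERV1-1 LTR was higher in AC, at 10.23, 10.31, 10.38 and 10.37 against 10.05 and 9.83 (0.38 ± 0.10 SE, limma adjusted p = 0.0466), and lost its call whichever library was left out, with differences from 0.27 without MZ testes replicate 2 to 0.49 without MZ testes replicate 1. Their partner entries did not pass, with 95% intervals of −0.52 to −0.056 for Copia-9 INT (limma adjusted p = 0.0837), −0.64 to 0.46 for LTR-28 INT and −0.11 to 0.26 for ERV1-1 INT. Limma called 0 members without AC testes replicate 1 (4 at an unadjusted p under 0.05) or without MZ testes replicate 1 (5), 1 without AC testes replicate 2 or 4 or MZ testes replicate 2, and 2 without AC testes replicate 3. The member median was −0.020, that of all families −0.018, and scaling to all 24 to 35 nucleotide reads moved them to 0.37 and 0.37. On that scale 20 members were called, 19 of them higher in AC, as were 314 of 323 families called, Copia-9 LTR was still called lower in AC at −0.42, and LTR-28 LTR was at −0.072 and not called.

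Between TM and MZ testes, 23.3% of all families were called, 10.5% higher and 12.8% lower in TM, and 8 of 28 members (28.6%), 3 higher and 5 lower in TM. With TM replicates 1 and 3 averaged, 4 members and 63 families were called. Libraries did not overlap in 13 members, against 46.4% of all families. Leaving out any 1 of TM testes replicates 1, 2 or 3 also left 4 members, beside 66, 66 and 62 of all families. Copia-2 LTR was higher in TM, at 6.78, 6.67, 6.66 and 6.89 against 6.17 and 5.94 in MZ (0.70 ± 0.10 SE, limma adjusted p = 0.00461). ERV1-8 was lower in TM, its LTR at 7.26, 7.41, 7.21 and 7.52 in TM and 7.89 and 7.92 in MZ (−0.56 ± 0.11 SE, limma adjusted p = 0.0106). ERV1-8 INT was at 11.37, 11.33, 11.32 and 11.40 in TM and 11.55 and 11.73 in MZ (−0.29 ± 0.07 SE, limma adjusted p = 0.022). None of these 3 entries overlapped between the species, but scaled to all reads the ERV1-8 INT difference was 0.066. Copia-5 INT was at 11.51, 11.57, 11.51 and 11.58 in TM and 11.81 and 12.14 in MZ (−0.44 ± 0.09 SE, limma adjusted p = 0.0135). Both LTR-28 entries were lower in TM, the LTR by −0.37 ± 0.07 SE (limma adjusted p = 0.00949), with all TM libraries at 9.34 to 9.42 and MZ at 9.75 and 9.79. The LTR of ERV1-1 (0.37 ± 0.09 SE, limma adjusted p = 0.0275) and that of ERV1-6 (0.28 ± 0.09 SE, limma adjusted p = 0.0495) were higher in TM.

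Of these 8 calls, Copia-2 LTR, ERV1-8 LTR, Copia-5 INT and LTR-28 LTR were kept with each library left out in turn and with TM replicates 1 and 3 averaged. The size of the Copia-5 INT difference still moved, to −0.60 when MZ testes replicate 1 was left out and to −0.27 when replicate 2 was. LTR-28 INT (−0.54 ± 0.15 SE, limma adjusted p = 0.0408, with 8.10, 8.16, 8.14 and 8.52 in TM and 8.97 and 8.57 in MZ) was not called without MZ testes replicate 1 (−0.34) or without TM testes replicate 1, 2 or 3 (−0.50, −0.52 and −0.51). ERV1-8 INT was not called without TM testes replicate 1, 2 or 3 (−0.29, −0.28 and −0.27), nor ERV1-1 LTR without the same 3 libraries (0.40, 0.37 and 0.40) or MZ testes replicate 2 (0.27). ERV1-6 LTR lost its call whichever library was left out, with 0.24 (without TM testes replicate 4) the lowest and 0.32 (without MZ testes replicate 1) the highest difference. The DIRS entries did not pass, at 0.29 (95% interval 0.01 to 0.58) for DIRS-1 and 0.21 (−0.0065 to 0.43) for DIRS-2. DIRS-1 depended on the MZ libraries, at 0.10 without MZ testes replicate 1 (limma adjusted p = 0.545) and 0.48 without MZ testes replicate 2 (limma adjusted p = 0.0338). DIRS-2 passed without TM testes replicate 4 (0.28, limma adjusted p = 0.0319). Scaled to all reads, 20 members were called, all higher in TM, with a median of 0.38 over members and 0.38 over all families, and 377 of 391 families called were higher in TM. On that scale the 4 other members called lower in TM were still negative but not called, ERV1-8 LTR at −0.21, LTR-28 INT at −0.19, Copia-5 INT at −0.086 and LTR-28 LTR at −0.021. The 3 species comparisons share libraries pairwise, so they do not bear on each other independently.

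**Figure D5:**
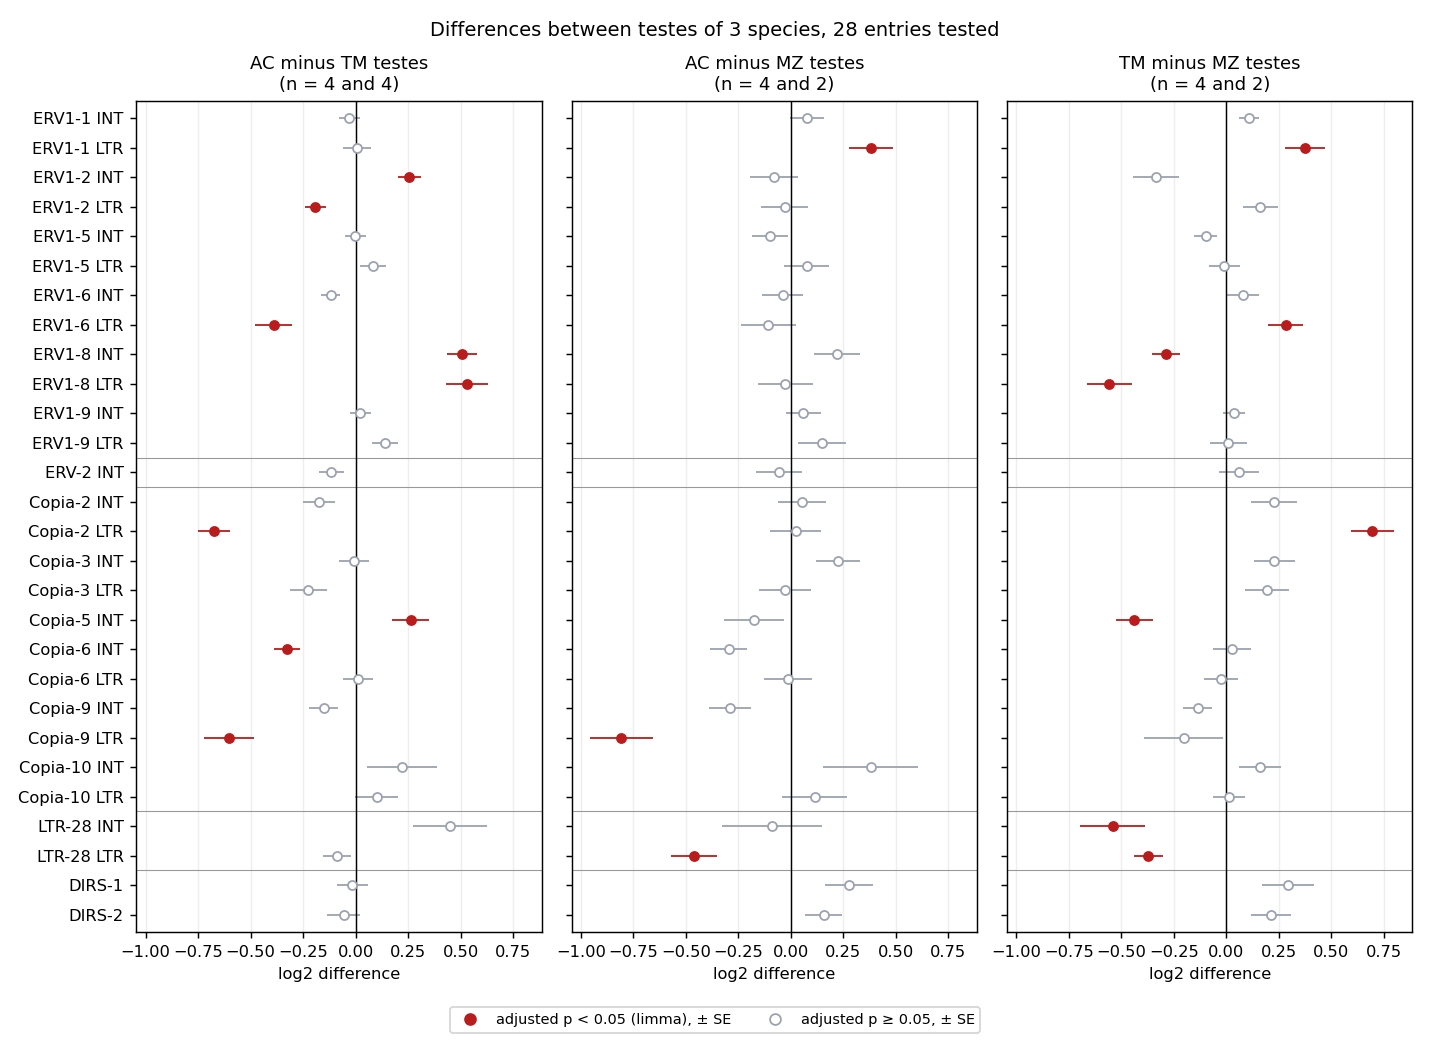
Log2 difference between testes of 2 species for the 28 entries tested, in 3 panels (AC minus TM, AC minus MZ, TM minus MZ), with standard errors as bars; filled red points passed a limma adjusted p of 0.05 and open grey points did not. Copia-9 LTR is left of 0 in both panels with AC (−0.60 and −0.81), ERV1-8 INT and LTR are right of 0 against TM and left of 0 for TM minus MZ, where ERV1-8 INT turns to 0.066 when libraries are scaled to all reads.

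Muscle of AC, the one tissue other than gonad, was a single library, so its values have no replicate check and no test. Reads of this length need not be piRNAs in an organ without germ cells, so its values are given as reads only. Reads over TEs were few in it, and the rlog transformation then draws values towards those of the other libraries. Against the 7 AC gonad libraries, 5 of 29 members were above all and 8 below all of them, against 29.6% and 31.1% of all 557 entries. Of the 14 internal members 7 were below all gonad libraries, and of the 13 LTR members 1. The share over all internal entries was not computed, so no pattern of internal regions is read from this. Among the 7 was ERV-2 INT, at 11.54 in muscle against 12.36 to 12.56 in ovaries and 12.29 to 12.49 in testes. The others were the INT entries of Copia-3, Copia-5, Copia-9, ERV1-5, ERV1-6 and ERV1-8. ERV1-1 LTR stood out above the gonads, at 11.61 in muscle, 10.03 to 10.32 in ovaries and 10.23 to 10.38 in testes, while ERV1-1 INT at 13.14 was within the gonad range. The gap of ERV1-1 was therefore 1.52 in muscle, 2.49 to 2.66 in AC testes and 3.03 to 3.17 in ovaries. DIRS-1 was also above the gonads, at 13.33, whereas DIRS-2 at 12.67 was not. LTR-28 INT (9.11), LTR-28 LTR (9.78) and ERV-2 LTR (2.69) were the others above the gonads, by at most 0.36.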

How the data were processed

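Libraries of sRNAs were made with 1 kit and, by the methods, pooled and sequenced on 1 lane, and the labels name no sequencing batch. By their methods, the authors trimmed adapters, kept reads of 24 to 35 nucleotides (cutadapt 1.15), mapped them to the AC genome fAstCal1.2 with STAR 2.5.4b (up to 100 loci and 2 mismatches), counted them over TE families, multimapping reads included (featureCounts 1.6.0), and normalised with DESeq2. The deposited log2 (rlog) values were used here without change. A read that fits related families may be counted for any of them, so related ERV1 or Copia entries are not fully separate. The depth of single families is not given by rlog values, and precision rests on the spread between libraries.

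Groups were compared pairwise with limma 3.58.1 in R 4.3.3 (mean trend, Benjamini-Hochberg adjustment over the 554 families with a mean linear value of at least 10, threshold 0.05), tested on simulated data. Members were described by counts and medians beside those of all families. The members, lists and comparisons were chosen with earlier results of these data known. Named entries are all DIRS entries, the highest entry of each superfamily, up to 8 called entries per direction and comparison with libraries that do not overlap, and their partners, and any ERV1 or Copia entry could be described. Copia-5 INT, which overlaps in 1 comparison, was named as the highest Copia entry. Alternatives were scaling to all 24 to 35 nucleotide reads (totals from the study's mapping tables) or to the TE total with and without NA-DNA-22, minimum values of none and 100, 1 fit of all gonad groups, no mean trend, a replicate block, each library left out, and TM testes replicates 1 and 3 averaged. The deposited tables of the other annotation and of other species name families by number, with no superfamily, and were not used here. The figures were drawn by matplotlib 3.10.9 from tables written through pandas 2.3.3 and numpy 2.4.6 under Python 3.11.15.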

Additional observations from a re-analysis of the deposited data

Results flagged for a closer look

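In the groups of 4 libraries, each entry was examined for a library whose distance to its nearest neighbour takes most of the range of the group (Dixon's criterion at 95%), which chance meets in about 1 of 20 groups. Of 58 groups (29 entries in AC testes and in TM testes), 5 met it. Copia-2 INT in AC testes replicate 3 was at 10.58, the other 3 being at 10.38 to 10.40, and ERV1-2 INT in the same library was at 11.84, the other 3 being at 11.95 to 11.97. DIRS-2 in AC testes replicate 2 was at 12.59, the other 3 being at 12.77 to 12.81, which places it among the ovary values. Copia-9 INT in TM testes replicate 4 was at 10.62, the other 3 being at 10.77 to 10.78. LTR-28 INT in that library was at 8.52, the other 3 being at 8.10 to 8.16. For TM testes the likeness of replicates 1 and 3 narrows the spread of the other 3 libraries.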

How the results depend on the processing

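TE-mapping reads were few in muscle and in ovaries, and rlog values do not give back counts, so a count model was not run. Numbers of members past the threshold under scaling to all 24 to 35 nucleotide reads were 16 for AC testes against ovaries (10 with the values as deposited), 20 for AC against MZ (3) and 20 for TM against MZ testes (8), with medians of 1.42, 0.37 and 0.38. Scaled to the TE total, AC testes against ovaries gave 16 members and a median of 0.43, and AC against MZ a median of 0.042. Without the most abundant family in that total the median of testes against ovaries was 0.16. At a minimum mean linear value of 100 the medians were 0.013 for testes against ovaries and 0.013 for AC against MZ. One fit over all gonad groups gave 4 members for TM against MZ, and averaging TM replicates 1 and 3, chosen after seeing the data, gave 4. Over all families, TM against MZ gave 129 calls as deposited, 60 in one fit and 63 on the average, and AC against MZ gave 90 and 323 scaled to all reads. Without 1 AC library, AC against MZ gave 22 to 57 calls over all families, and without 1 TM library TM against MZ gave 62 to 106. With 1 library left out in turn, testes against ovaries gave 180 to 230 calls over all families and AC against TM 177 to 239. The numbers of members were then 5 to 10 for testes against ovaries, 8 to 13 for AC against TM, 0 to 2 for AC against MZ and 4 to 8 for TM against MZ, and the medians −0.013 to 0.064, −0.039 to −0.0032, −0.026 to 0.095 and 0.012 to 0.059. Sign changes came from scaling to all reads in testes against ovaries, for ERV1-1 INT (0.95), ERV1-2 INT (0.86), ERV1-5 INT (0.87), ERV1-6 INT (1.07), ERV1-9 INT (0.51) and ERV1-8 LTR (0.93), and in TM against MZ for ERV1-8 INT (0.066). Scaled to the TE total, ERV1-6 INT was 0.089 in testes against ovaries, and 1 of the 6 ERV1 internal entries was called lower. These scalings add 1 number to each library, which moves all entries together.

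Replicate numbers were not taken to pair the libraries. The deviations of same-numbered libraries from their group means correlated at −0.36 to 0.18, and in no comparison was every pair over 0.1. Between AC and TM, same-numbered pairs were all positive (0.18, 0.016, 0.12 and 0.18), and different-numbered pairs were at −0.21 to 0.19. With 2 MZ libraries the deviations mirror each other, so the comparisons with MZ cannot decide on pairing. A fit with the replicate number as a block gave 8 members for testes against ovaries and 10 for AC against TM. Over all families it called 182 and 242. It gave 2 members for AC against MZ and 0 for TM against MZ (7 at an unadjusted p under 0.05). In these comparisons with MZ the block leaves 2 libraries of each species, and it calls 48 and 21 of all families. Through the alternatives 37 differences of single entries were followed: the members called and the DIRS differences that were not called. The called ones were 10 for testes against ovaries, 9 for AC against TM, 3 for AC against MZ and 8 for TM against MZ. Of those called, 11 lost their call under the block, 7 in one fit of all gonad groups, 2 without the mean trend and 2 without the minimum value. The cause of these losses was not tested.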
